A study of Mus musculus with 12 samples.

Results

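The genes examined were the 9 that encode the ligands and receptors of vascular endothelial growth factor (VEGF) signaling, taken by gene symbol as a family: the ligands *Vegfa*, *Vegfb*, *Vegfc* and *Pgf*, the receptor tyrosine kinases *Flt1*, *Kdr* and *Flt4*, and the neuropilins *Nrp1* and *Nrp2*. All 9 were found among the 55421 genes of the count table and all 9 passed the filter on low counts, as did 15999 genes in all. RNA was sequenced from sorted bone marrow endothelial cells of 12 mice aged 20 weeks, 3 in each of 4 groups. The control group was naive C57BL/6J mice. Hypertensive C57BL/6J mice had received angiotensin II, a vasoconstricting peptide, over 8 weeks from an implanted pump. Atherosclerotic mice carried the Apoe(tm1Unc) knockout allele in every cell and ate a western diet over 10 weeks, so that genotype, diet and disease cannot be told apart in this group. MI mice were C57BL/6J animals after permanent ligation of a coronary artery; their labels give day 2 after infarction and the text of the paper gives day 4. The paper also names buprenorphine, given before and in the first days after all surgical interventions, and isoflurane anesthesia for pump implantation. Controls were naive, so surgery and these agents cannot be told apart from disease in the hypertension and MI groups. No other allele is named for these groups, and the same 3 controls served in every comparison with disease.

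VEGF ligands are secreted proteins that bind receptor tyrosine kinases on endothelial cells and drive their growth, migration and permeability. VEGF-A acts mainly through VEGFR2, the product of *Kdr*, whereas VEGFR1 (*Flt1*) binds VEGF-A, VEGF-B and placental growth factor (*Pgf*) with little signaling of its own and in its soluble form holds ligand back. VEGF-C signals through VEGFR3 (*Flt4*) on lymphatic and some blood endothelium, and neuropilins are co-receptors that also bind semaphorins. In the marrow, *Kdr* and *Flt4* are known from the sinusoidal endothelium, while ligands also come from blood-forming and stromal cells.

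The sort kept cells negative for TER-119, CD41 and CD45, high in CD31 and positive for SCA-1, after a depletion of lineage-positive cells with magnetic beads. In the libraries, counts on genes totalled between 17007088 and 25136936, at which 3 counts, taken as the floor, amounted to between 0.116 and 0.176 CPM (each count divided by the scaled library total in units of 1000000 counts), counting error only. The targeted gene *Apoe* was at 7.28 to 14.8 CPM in the 3 Apoe(tm1Unc) libraries and at 450.5 to 1503 CPM in the other libraries, as their labels say. Markers of the labelled cell type were present at low levels. The 23 endothelial genes, none of them a member of the VEGF family, held 171 to 338 CPM of the library total, and *Cdh5* (VE-cadherin) 2.00 to 4.19 CPM. The 13 neutrophil genes held 35098 to 92571 CPM and the 14 erythroid genes 11918 to 44631 CPM. *Ptprc*, which encodes CD45, was at 463 to 814 CPM. Of the other sort markers, *Pecam1* (CD31) was at 17.2 to 31.8 CPM, *Ly6a* (SCA-1) at 5.16 to 29.9 CPM and *Itga2b* (CD41) at 44.1 to 139 CPM. Fewer cells of a type and less RNA per cell cannot be told apart in such bulk samples. The levels of the members given below are those of whole libraries and cannot be assigned to endothelial cells.

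**Figure D1:**
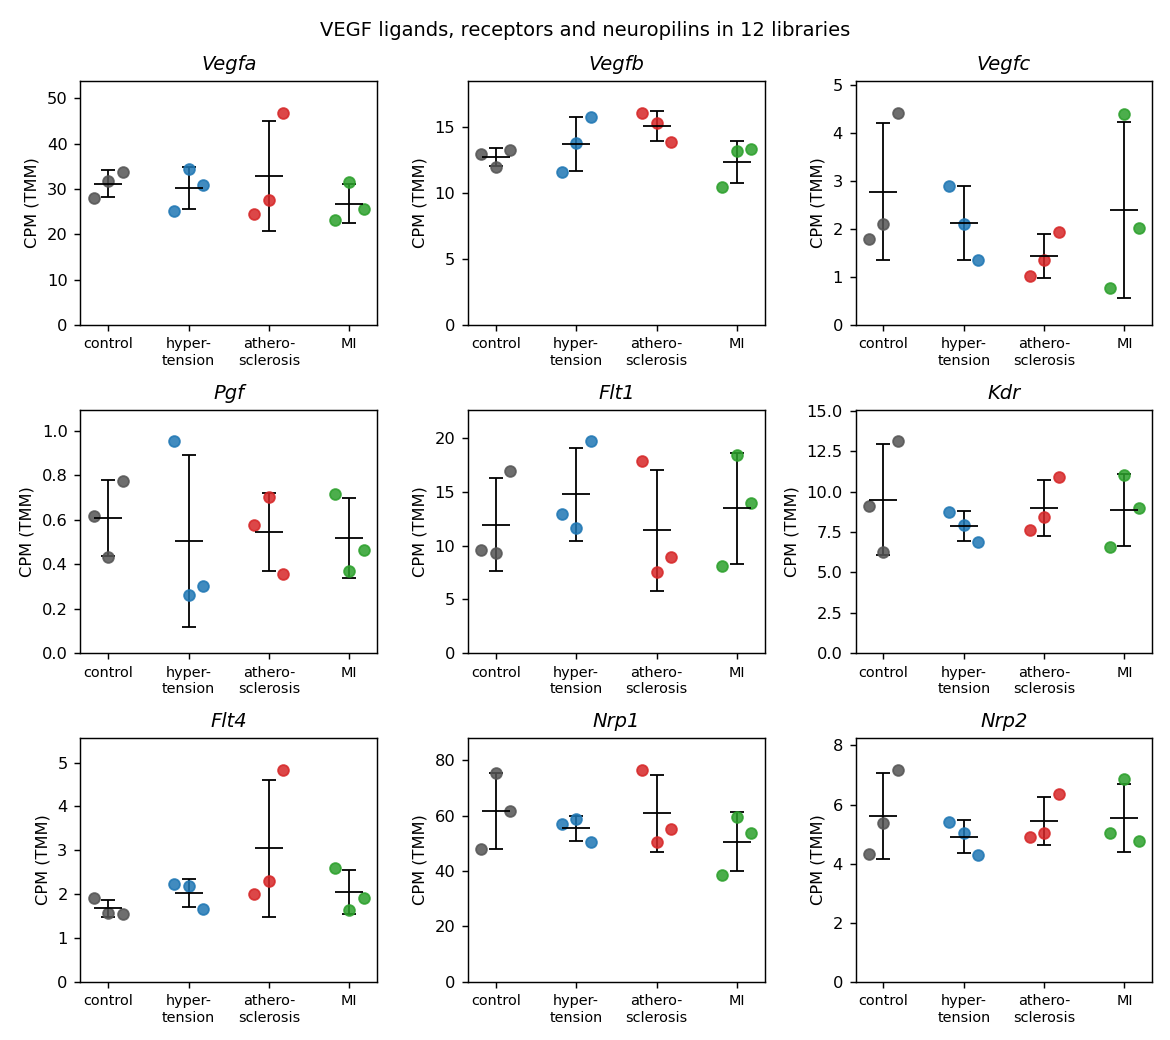
Level of each of the 9 genes in CPM scaled by TMM (vertical axes, each from 0) in the 12 libraries by group; points are single mice in the order of replicates 2, 3 and 4, long bars the mean and whiskers the SD (n = 3). Each disease group overlaps with the controls in all panels except atherosclerosis in *Vegfb* (13.9 to 16.1 against 11.97 to 13.3) and *Flt4* (2.00 to 4.84 against 1.55 to 1.91). Of all genes tested, 9.51% are without overlap between atherosclerosis and controls.

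No member passed the test in any comparison. Against controls, 0 of 9 members passed an adjusted p of 0.05 in hypertension, where 0% of all genes tested passed, 0 of 9 in atherosclerosis (0.144% of all genes) and 0 of 9 after MI (0% of all genes; edgeR's quasi-likelihood test, Benjamini-Hochberg adjustment over 15999 genes). The comparisons between disease groups gave 0 of 9 as well, against 0.0625% of all genes for atherosclerosis against hypertension, 0% for MI against hypertension and 0.269% for MI against atherosclerosis. In the test for any difference among the 4 groups the count was 0 of 9, against 0.144% of all genes. At an unadjusted p under 0.05, the count of members was 0 in hypertension, 1 in atherosclerosis and 0 after MI, with 3.71%, 5.97% and 2.8% of all genes. Likelihood-ratio testing in edgeR and DESeq2 also called 0 of 9 in each comparison. In hypertension 3 members were higher and 6 lower, with a median log2 fold change of -0.15 (all genes -0.01). In atherosclerosis 3 were higher and 6 lower (median -0.05, all genes 0.01), and after MI 2 were higher and 7 lower (median -0.10, all genes 0.000225).

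*Vegfa*, the main angiogenic ligand, is located on chromosome 17 of GRCm38 (46016993 to 46032369) and had 419 to 919 counts per library. Controls held 28.0, 31.7 and 33.8 CPM, hypertensive mice 25.2, 34.3 and 30.8, atherosclerotic mice 24.5, 27.5 and 46.8, and MI mice 23.1, 31.5 and 25.5. Atherosclerosis replicate 4 stood far above the controls and hypertension replicate 3 just above them, and MI replicate 2 was the lowest library. The log2 fold change was -0.05 in hypertension (95% confidence interval -0.54 to 0.44), 0.08 in atherosclerosis (-0.41 to 0.57) and -0.22 in MI mice (-0.71 to 0.27), each with an adjusted p of at least 0.972 in edgeR's quasi-likelihood test. Without atherosclerosis replicate 4 the value in atherosclerosis was -0.26.

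*Vegfb*, a ligand of VEGFR1 linked to fatty acid handling, lies on chromosome 19 from 6982473 to 6987651 and varied least among the members, with a coefficient of variation of 12.4% over the 12 libraries. Controls held 13.01, 11.97 and 13.3 CPM, hypertensive mice 11.6, 13.8 and 15.8, atherosclerotic mice 16.1, 15.3 and 13.9, and MI mice 10.5, 13.2 and 13.3. All 3 atherosclerosis libraries were above all 3 controls, at 15.1 ± 1.14 against 12.8 ± 0.702 CPM (SD, n = 3 each; two-sided exact permutation p = 0.1, which is the lowest this design can reach). On the log2 scale the difference was 0.24 (95% confidence interval -0.12 to 0.61) and the adjusted p was 0.889 in edgeR's quasi-likelihood test. Of all genes tested, 9.51% were likewise without overlap in this comparison. In hypertension and after MI the libraries overlapped with controls, at log2 fold changes of 0.10 and -0.05.

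*Vegfc*, the ligand of VEGFR3, lies on chromosome 8 from 54077606 to 54187096 and rested on 14 to 114 counts. Controls held 1.79, 2.11 and 4.42 CPM, hypertensive mice 2.91, 2.10 and 1.35, atherosclerotic mice 1.02, 1.35 and 1.94, and MI mice 0.773, 4.39 and 2.03. It varied most among the members (coefficient of variation 54.2%), and both the control and the MI group held a library above 4 CPM. Its log2 fold change was -0.40 in hypertension, -0.96 in atherosclerosis (95% confidence interval -2.15 to 0.22, adjusted p = 0.86 in edgeR's quasi-likelihood test) and -0.22 after MI. Without control replicate 4 the atherosclerosis value was -0.44, and the other two became 0.13 and 0.30.

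*Pgf*, placental growth factor, lies on chromosome 12 from 85166635 to 85177790. It had only 6 to 21 counts per library and 0.263 to 0.953 CPM, 2 to 7 times the floor of 3 counts. Groups overlapped throughout, and the intervals of its fold reached from 0.379 to 1.80 for hypertension, 0.405 to 1.93 for atherosclerosis and 0.381 to 1.86 for MI. The data do not exclude folds within these intervals, given 3 mice a group and these low counts.

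**Figure D2:**
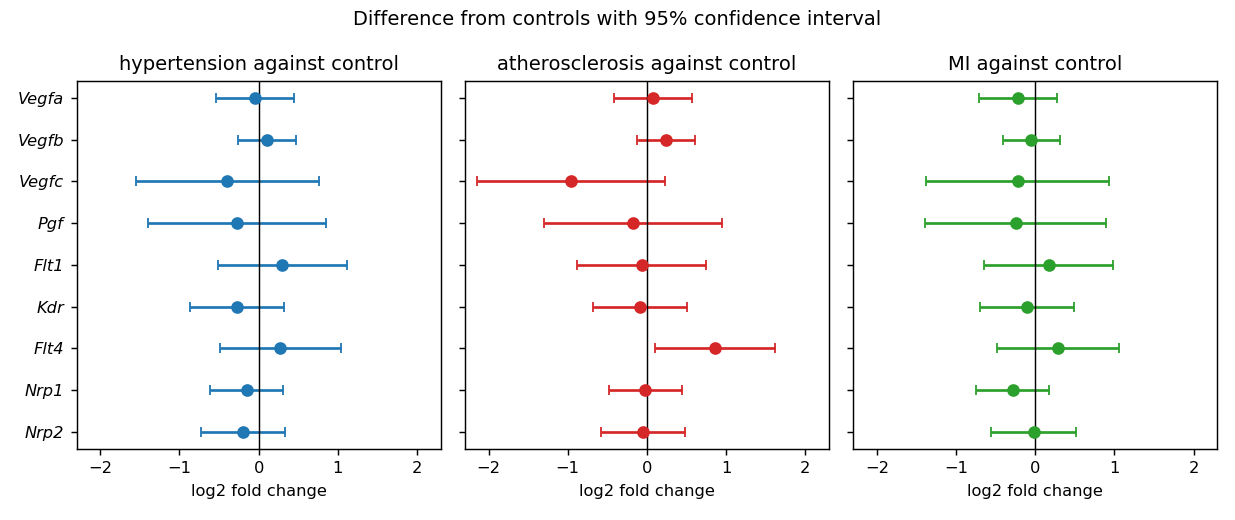
Log2 fold change of each member against the 3 controls (horizontal axis) in hypertension, atherosclerosis and MI, with 95% confidence intervals from edgeR's quasi-likelihood fit over 12 libraries. All intervals include 0 except that of *Flt4* in atherosclerosis (0.10 to 1.62), whose adjusted p is 0.785.

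Among the receptors, *Flt1*, the decoy-like VEGFR1, lies on chromosome 5 from 147561604 to 147726011. Controls held 9.59, 9.31 and 16.95 CPM, hypertensive mice 12.9, 11.6 and 19.7, atherosclerotic mice 17.8, 7.52 and 8.91, and MI mice 8.06, 18.4 and 14.0. Each group held libraries below 13 and above 16 CPM, so that the spread within groups exceeded the differences between them. Log2 fold changes were 0.30 in hypertension (95% confidence interval -0.52 to 1.11), -0.07 in atherosclerosis (-0.88 to 0.75) and 0.17 in MI mice (-0.65 to 0.98). With the neutrophil marker sum as a covariate the value in hypertension turned to -0.42 (standard error 0.29). That sum was 38345 to 54905 CPM in hypertension and 60521 to 80041 CPM in controls. The ranges did not overlap, so this covariate and the hypertension group cannot be fully told apart.

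*Kdr*, which encodes VEGFR2, the main signaling receptor for VEGF-A, lies on chromosome 5 from 75932827 to 75978458 and had 116 to 338 counts. Controls held 9.08, 6.28 and 13.1 CPM, hypertensive mice 8.76, 7.93 and 6.91, atherosclerotic mice 7.61, 8.46 and 10.9, and MI mice 6.57, 11.01 and 8.98. Both the lowest and the highest of the 12 values were controls. The fold against controls was 0.827 in hypertension (95% confidence interval 0.548 to 1.25), 0.944 in atherosclerosis (0.626 to 1.42) and 0.93 in MI mice (0.616 to 1.40). With the log2 endothelial marker sum as a covariate the log2 fold changes were -0.02, -0.11 and 0.02, with standard errors of 0.20, 0.19 and 0.19.

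*Flt4*, the VEGF-C receptor VEGFR3, lies on chromosome 11 from 49609263 to 49652739 and had 29 to 95 counts. Controls held 1.91, 1.57 and 1.55 CPM, hypertensive mice 2.22, 2.19 and 1.65, atherosclerotic mice 2.00, 2.29 and 4.84, and MI mice 2.59, 1.64 and 1.91. The 3 atherosclerosis libraries were above the 3 controls, with replicate 4 far above replicates 2 and 3. At 3.04 ± 1.56 against 1.68 ± 0.199 CPM (SD, n = 3 each) the exact two-sided permutation p was 0.1. The difference of 0.86 on the log2 scale (standard error 0.35, unadjusted p = 0.029) ranked 590 among all genes in this comparison and had an adjusted p of 0.785 in edgeR's quasi-likelihood test. Without atherosclerosis replicate 4 it was 0.35. That library and control replicate 4 also held the most endothelial marker RNA, 320 and 322 CPM on the same scale against at most 269.6 in the others. Control replicate 4 had the lowest *Flt4* value of the 12 libraries, 1.55 CPM. Pearson's r of *Flt4* with the endothelial marker sum was 0.39 (permutation p = 0.215, adjusted p = 0.585) and Spearman's rho was 0.03. Among the marker lists, *Flt4* had its highest r with the megakaryocyte list, 0.57 (permutation p = 0.0552, adjusted p = 0.399). Spearman's rho with that list was 0.67 (permutation p = 0.021, adjusted p = 0.303). The megakaryocyte sum was 964 to 1418 CPM in atherosclerosis, which overlapped with 453 to 1951 CPM in controls. The part of endothelial cells or megakaryocytes in the *Flt4* value of atherosclerosis replicate 4 was not tested. With *Vegfb*, *Flt4* made 2 of 9 members whose atherosclerosis and control libraries did not overlap, against 9.51% of all genes tested. In hypertension and after MI the count was 0 of 9, against 16.8% and 8.86% of all genes.

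Of the co-receptors, *Nrp1* lies on chromosome 8 from 128358604 to 128503363 and had 699 to 1722 counts. Its exons share 80 bp with the microRNA gene *Mir1903* on the same strand. Controls held 47.8, 75.3 and 61.7 CPM, hypertensive mice 57.2, 58.6 and 50.4, atherosclerotic mice 76.6, 50.45 and 55.4, and MI mice 38.6, 59.4 and 53.8. The groups overlapped, with folds of 0.899 (95% confidence interval 0.654 to 1.24), 0.987 (0.718 to 1.36) and 0.821 (0.597 to 1.13) in hypertension, atherosclerosis and MI. *Nrp2*, on chromosome 1 from 62703285 to 62818695, had 77 to 185 counts. Controls held 4.32, 5.36 and 7.18 CPM, hypertensive mice 5.40, 5.04 and 4.31, atherosclerotic mice 4.89, 5.05 and 6.37, and MI mice 5.02, 6.88 and 4.75. Again the highest library was control replicate 4, and the log2 fold changes were -0.20, -0.05 and -0.02.

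To compare levels between the members in the whole libraries, CPM were divided by the length of the merged exons of each gene. *Vegfb* had the highest level at 8.40 ± 1.04 CPM per kb (SD, n = 12), followed by *Vegfa* at 7.06 ± 1.497 and *Nrp1* at 5.84 ± 1.10. *Vegfb* was above *Vegfa* in 11 of 12 libraries and *Vegfa* above *Nrp1* in 10 of 12. Below a gap came *Kdr* at 0.974 ± 0.224, *Flt1* at 0.955 ± 0.325 and *Vegfc* at 0.891 ± 0.483 CPM per kb, an order that held in 8 and 6 of 12 libraries and thus lay within their spread. *Nrp2* (0.454 ± 0.0794), *Flt4* (0.267 ± 0.108) and *Pgf* (0.188 ± 0.0739) were lowest. *Nrp1* exceeded *Kdr* 6.03-fold in level per kb and *Nrp2* 12.8-fold, in 12 of 12 libraries each. The order at the top depended on the length taken. With the longest annotated transcript of each gene in place of merged exons, which for *Nrp1* is 3645 against 9785 bp, *Nrp1* came first at 15.7 ± 2.95 CPM per kb and exceeded *Vegfb* in 12 of 12 libraries, and *Flt1* came before *Kdr* in 9 of 12.

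**Figure D3:**
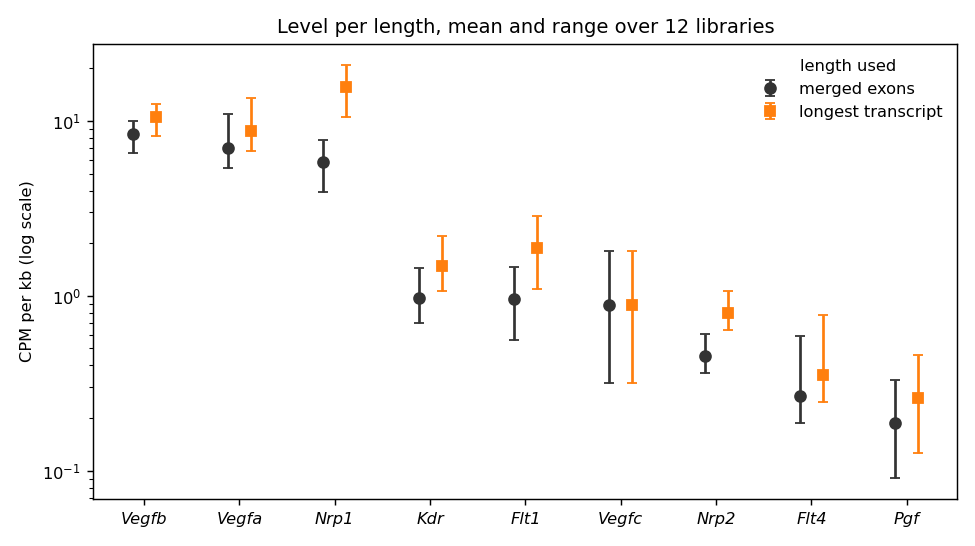
Level of each member in CPM per kb (vertical log axis), ordered by the level over merged exons; circles and squares are means over the 12 libraries for the 2 lengths, whiskers the lowest and highest library. *Vegfb*, *Vegfa* and *Nrp1* lie above the other members with both lengths, and *Nrp1* moves from 5.84 to 15.7 CPM per kb between them.

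The level of each member was compared with that of cell type markers from library to library. Over the 88 pairs of 8 members above 1 CPM with 11 marker lists, 1 passed an adjusted p of 0.05: *Kdr* with the endothelial list. Pearson's r of log2 CPM was 0.88 over the 12 libraries (permutation p = 0.0002, adjusted p = 0.0176) and Spearman's rho was 0.74 (permutation p = 0.00796, adjusted p = 0.303). Without the 2 libraries farthest from the median of the endothelial sum, control replicate 4 and atherosclerosis replicate 4, r was 0.79, and as deviations from the group means it was 0.89. Of the 22 endothelial genes above 1 CPM, 21 correlated positively with *Kdr*, with a median r of 0.67. Leaving out control replicate 4, hypertension replicate 4 or MI replicate 3 moved the adjusted permutation p of r to 0.123, 0.059 and 0.0818, at r of 0.83, 0.87 and 0.88.

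For *Nrp2* against the same list, r was 0.74 (permutation p = 0.00676, adjusted p = 0.146) and rho 0.48 (permutation p = 0.116, adjusted p = 0.677), and r was 0.46 without those 2 libraries. After removal of 5 genes that blood cells also express (*Pecam1*, *Vwf*, *Egfl7*, *Esam* and *Eng*), a choice made after the values were seen, r was 0.85 for *Nrp2* and 0.83 for *Kdr*, each with an adjusted permutation p of 0.0444. For *Nrp1*, r against the endothelial list was -0.03 (permutation p = 0.937, adjusted p = 0.976) and rho 0.17 (permutation p = 0.588, adjusted p = 0.877). For *Flt1*, r was 0.08 (permutation p = 0.799, adjusted p = 0.974) and rho 0.06 (permutation p = 0.869, adjusted p = 0.974). The differences between these correlations were not tested. Without the 2 farthest libraries r was -0.18 for *Nrp1* and 0.13 for *Flt1*.

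**Figure D4:**
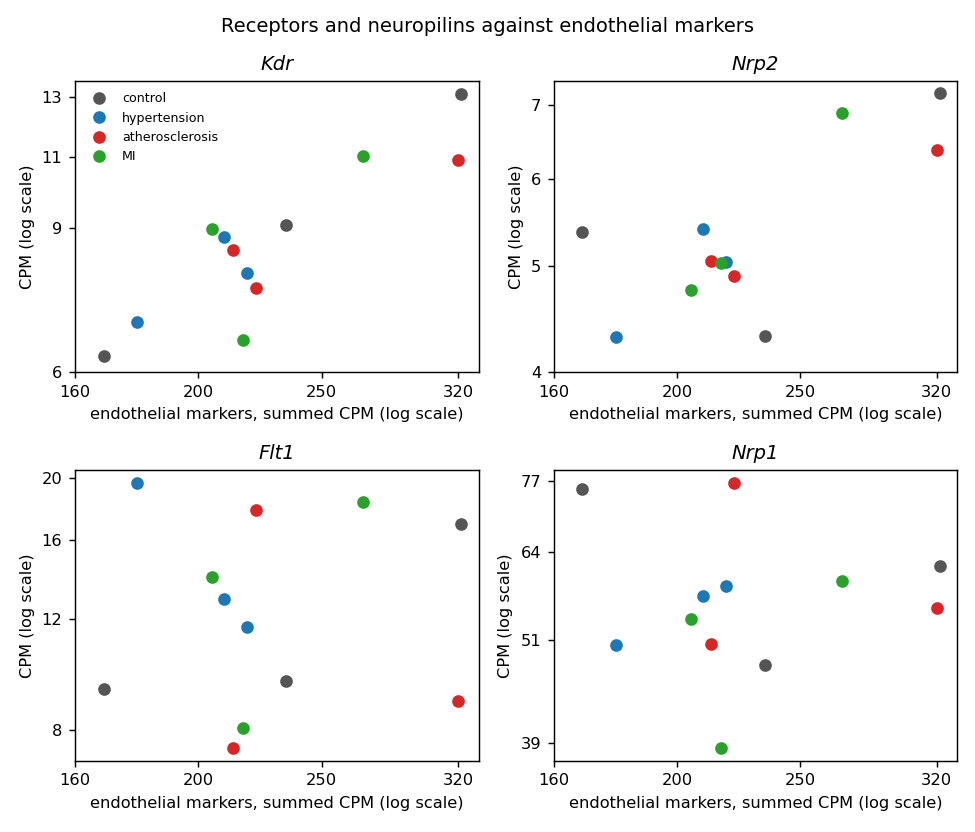
Level of *Kdr*, *Nrp2*, *Flt1* and *Nrp1* (vertical log axes, CPM) against the summed CPM of 23 endothelial marker genes on the same TMM scale (horizontal log axis); each point is 1 of 12 libraries, colored by group. *Kdr* lies along a rising band (r = 0.88), whereas *Nrp1* shows no such band (r = -0.03).

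Another 9 pairs had an unadjusted permutation p under 0.05 without passing the adjustment, the pair of *Nrp2* with endothelial markers among them. *Vegfb* had r of 0.78 with the 6 basophil and mast cell genes (permutation p = 0.00328, adjusted p = 0.144; rho 0.62, permutation p = 0.0372, adjusted p = 0.364) and 0.74 with the 10 B cell genes (permutation p = 0.00607, adjusted p = 0.146; rho 0.45, permutation p = 0.147, adjusted p = 0.677). Without atherosclerosis replicate 2 and MI replicate 2, at the ends of both lists, these r were 0.46 and 0.31, whereas without hypertension replicate 2 the r of *Vegfb* with the basophil and mast cell list was 0.88 (adjusted permutation p = 0.0286). The basophil and mast cell sum was 2854 to 7456 CPM in the atherosclerosis libraries, which overlapped with 2190 to 3369 CPM in controls. It was 3652 to 4669 CPM in hypertension, above all controls, where *Vegfb* overlapped with them, and its part in the higher *Vegfb* values of atherosclerotic mice was not tested. *Flt1* and *Nrp1* had negative r with the erythroid list, at -0.70 (permutation p = 0.00832, adjusted p = 0.146; rho -0.67, permutation p = 0.0194, adjusted p = 0.303) and -0.67 (permutation p = 0.0182, adjusted p = 0.229; rho -0.66, permutation p = 0.0241, adjusted p = 0.303). Without atherosclerosis replicates 2 and 3, these r were -0.56 and -0.59. *Vegfb* also had negative r with the neutrophil list, at -0.67 (permutation p = 0.018, adjusted p = 0.229; rho -0.66, permutation p = 0.0228, adjusted p = 0.303), and with the monocyte list, at -0.64 (permutation p = 0.026, adjusted p = 0.286; rho -0.38, permutation p = 0.22, adjusted p = 0.677), which were -0.36 and -0.23 without the 2 libraries farthest from the median of each list. *Kdr* and *Nrp2* had positive r with the 12 stromal genes too, at 0.63 (permutation p = 0.0311, adjusted p = 0.304; rho 0.62, permutation p = 0.0372, adjusted p = 0.364) and 0.61 (permutation p = 0.0349, adjusted p = 0.307; rho 0.66, permutation p = 0.0241, adjusted p = 0.303), and 0.55 and 0.49 without hypertension replicate 4 and atherosclerosis replicate 2. A share of one cell type rises in CPM when that of another falls, so signs of r in these data are relative.

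**Figure D5:**
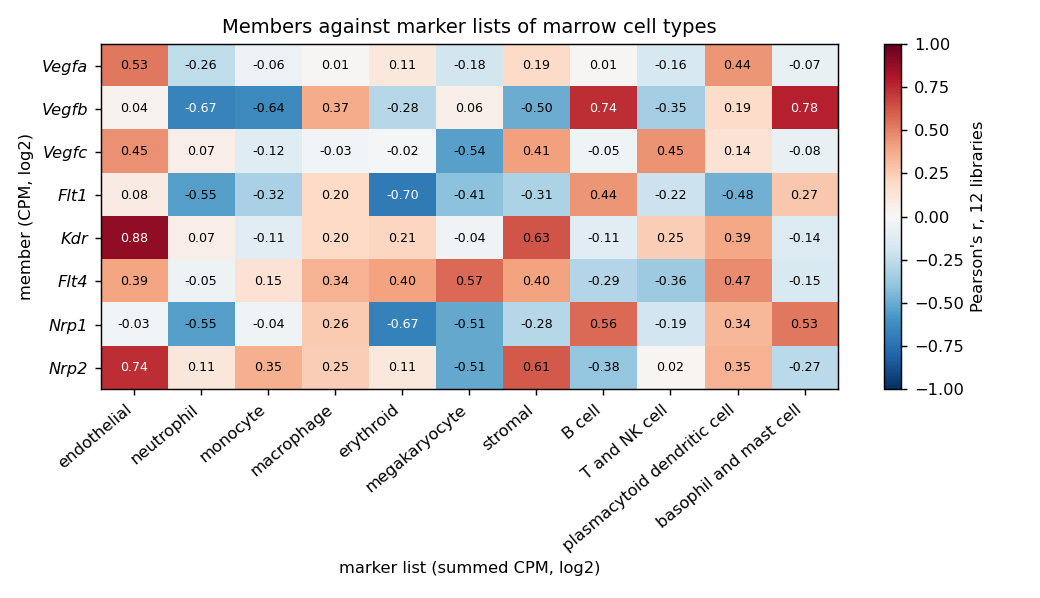
Pearson's r over 12 libraries between the log2 CPM of 8 members (rows) and the log2 summed CPM of 11 marker lists (columns), on a color scale from -1 to 1. Of the 88 values, only the 0.88 of *Kdr* with endothelial markers passed the adjusted p of 0.05.

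The genes whose log2 CPM followed each member most closely were sought among 13426 other genes above 1 CPM and are given as a description, since the highest of so many values is large by selection. For *Kdr* these were *Tm4sf1* (r = 0.91), *Sox18* (0.90) and *Gja5* (0.87), a membrane protein of endothelial cells, an endothelial transcription factor and the arterial gap junction protein connexin 40; *Tm4sf1* and *Sox18* are in the endothelial list. *Vegfc* was closest to *Mogat2* (r = 0.92), to *Cldn5* (0.91), an endothelial tight junction gene of the same list, and to *Npdc1* (0.91). *Nrp2* was closest to *Pigg*, *Fbln2* and *Ptprb* (0.90 each), the last of which encodes the endothelial phosphatase VE-PTP and is in the list. The leading genes of the other members were not in it. *Vegfa* was closest to *Mxi1* (0.96), a MYC antagonist, *Vegfb* to *Reps2* (0.95), *Flt1* to *Trmt10b* (0.95), *Flt4* to *Atp6v0a1* (0.89) and *Nrp1* to *Zfp638* (0.91). Among the 28 pairs of members, 0 passed an adjusted p of 0.05. The 3 with the highest r were *Kdr* with *Vegfc* (r = 0.73, rho 0.55), *Kdr* with *Nrp2* (0.72, rho 0.50) and *Vegfc* with *Nrp2* (0.70, rho 0.68), with adjusted permutation p values of 0.118 each for r and 0.344 each for rho (unadjusted permutation p 0.00761, 0.009 and 0.0126 for r). Without the 2 libraries farthest from the median of the first gene named, r was 0.51, 0.70 and 0.66.

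The 250 bases before the start of *Kdr* and *Nrp2*, which had the highest r with endothelial markers, and of *Flt1* and *Nrp1*, which had r near 0, are printed from RefSeq (GRCm38.p6), 5′ to 3′ on the strand of the gene. They are chr5:75978456-75978705 on the minus strand for *Kdr*, chr1:62703067-62703316 on the plus strand for *Nrp2*, chr5:147726012-147726261 on the minus strand for *Flt1* and chr8:128358823-128359072 on the plus strand for *Nrp1*. The gene positions given above are from GENCODE M21, whose starts differ from those of RefSeq for some genes. By these positions the *Nrp1* window lies inside the gene, and the *Nrp2* and *Kdr* windows lie partly inside. Capitals mark GGAA, the core that ETS factors of endothelial and blood cells bind, on either strand (GGAA or TTCC).
Kdr: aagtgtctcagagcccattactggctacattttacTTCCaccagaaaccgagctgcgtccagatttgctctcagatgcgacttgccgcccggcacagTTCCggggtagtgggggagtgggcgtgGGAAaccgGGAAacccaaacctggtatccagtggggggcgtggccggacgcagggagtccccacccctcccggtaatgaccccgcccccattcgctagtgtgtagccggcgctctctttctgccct
Nrp2: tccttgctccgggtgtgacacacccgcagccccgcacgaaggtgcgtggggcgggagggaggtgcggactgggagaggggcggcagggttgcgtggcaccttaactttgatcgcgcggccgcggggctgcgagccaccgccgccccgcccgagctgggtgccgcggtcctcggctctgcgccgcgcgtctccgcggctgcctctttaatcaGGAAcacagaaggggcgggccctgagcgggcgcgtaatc
Flt1: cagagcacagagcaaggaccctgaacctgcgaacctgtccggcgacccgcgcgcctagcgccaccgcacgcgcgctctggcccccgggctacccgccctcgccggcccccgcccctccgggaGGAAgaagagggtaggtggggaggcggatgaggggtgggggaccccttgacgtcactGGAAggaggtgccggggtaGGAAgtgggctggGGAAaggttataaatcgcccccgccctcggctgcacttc
Nrp1: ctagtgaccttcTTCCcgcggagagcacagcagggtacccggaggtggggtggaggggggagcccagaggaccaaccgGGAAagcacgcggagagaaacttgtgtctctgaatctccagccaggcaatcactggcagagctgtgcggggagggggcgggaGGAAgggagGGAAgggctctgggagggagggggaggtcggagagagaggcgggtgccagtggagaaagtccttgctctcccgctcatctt
The core occurred 4 times before *Kdr*, 1 time before *Nrp2*, 4 times before *Flt1* and 4 times before *Nrp1*. It is found at least once in 93.4% of 32851 such windows, with a median of 3 occurrences. The GC box GGGCGG, searched on both strands, occurred 2, 5, 3 and 1 times and is present in 32.7% of windows. TATAAA was found only before *Flt1* among these 4 (12.4% of windows), and the hypoxia response core ACGTG in none of them (16.6% of windows). Such matches are descriptions of the letters, not binding sites.

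Lists of genes around the receptors were tested in the same fit. Of 13 other ligands and neuropilin partners (semaphorins and plexins), 8 were tested and 0 passed against controls in any disease group. *Plxnd1*, the semaphorin receptor with the highest level in CPM in this list, was at 17.4 ± 1.88 CPM in controls and at 14.8 ± 2.91, 14.4 ± 1.97 and 15.9 ± 1.75 in hypertension, atherosclerosis and MI (SD, n = 3 each). *Plxna3*, a plexin that pairs with neuropilins, had the smallest p of the list, with log2 fold changes of -0.90, -0.93 and -0.97 against the same controls, an unadjusted p of 0.041, 0.040 and 0.034, and adjusted p values of at least 0.824 in edgeR's quasi-likelihood test. Its level was below 0.65 CPM in all 12 libraries. Of the receptor regulators, 11 of 12 were tested and 0 passed in either direction in any comparison. *Nedd4*, a ubiquitin ligase, was at 167 ± 23.5 CPM in controls and 157 to 174 CPM on average in disease. *Grb10*, an adaptor protein, had a log2 fold change of 0.76 in atherosclerosis (adjusted p = 0.564 in edgeR's quasi-likelihood test).

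Of 30 genes of the intracellular relay, 29 were tested and 0 passed against controls, while 1 passed between disease groups. It passed for MI against atherosclerosis, where 0.269% of all genes passed. *Fyn*, a SRC family kinase, held 44.5, 45.0 and 46.5 CPM in controls, 45.7, 43.2 and 41.7 in hypertension, 62.1, 58.4 and 63.5 in atherosclerosis and 30.7, 35.3 and 37.1 after MI. Atherosclerosis libraries were above, and MI libraries below, all others. The log2 fold change of MI against atherosclerosis was -0.83 (standard error 0.12, adjusted p = 0.0152 in edgeR's quasi-likelihood test), and its adjusted p was 0.0846 with the neutrophil marker sum as a covariate and 0.267 with only the 2 groups fitted. Without atherosclerosis replicate 4 or any of the MI libraries it was 0.0515 to 0.069. Against controls the adjusted p, by the same test, was 0.41 in atherosclerosis and 1.00 after MI. *Cdc42*, a small GTPase, was the gene with the highest CPM, at 832 ± 47.5 in controls and 745 to 854 on average in disease. 

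Of 11 transcription factors that act on receptor genes, 10 were tested, 1 was higher in atherosclerosis than in controls and 0 lower. Of all genes, 0.144% passed in this comparison. For MI against atherosclerosis 1 was lower and 0 higher, where 0.269% of all genes passed. *Gata2*, a factor of blood progenitors, mast cells and endothelium, held 20.2, 18.4 and 22.1 CPM in controls, 26.5, 25.4 and 30.9 in hypertension, 35.0, 44.0 and 46.6 in atherosclerosis and 18.1, 22.3 and 25.8 after MI. The atherosclerosis libraries were above all others. The log2 fold change was 1.05 in atherosclerosis against controls (standard error 0.17, adjusted p = 0.0342) and -0.92 for MI against atherosclerosis (standard error 0.17, adjusted p = 0.041; edgeR's quasi-likelihood test). It lost the call against controls when either covariate was added (adjusted p = 0.0546 with the endothelial sum and 0.066 with the neutrophil sum), with only the 2 groups fitted (0.206), and without any of the 3 controls or atherosclerosis replicates 3 and 4 (0.107 to 0.245). The call for MI against atherosclerosis was lost under the same 3 models (0.0826, 0.168 and 0.358) and without atherosclerosis replicate 3 or 4 or any MI library (0.0792 to 0.143). The gene also belongs to progenitors of basophils and mast cells. Markers of these cells held 2854 to 7456 CPM in atherosclerosis, which overlapped with 2190 to 3369 CPM in controls. The highest sum was that of atherosclerosis replicate 2, which had the lowest *Gata2* value of its group, 35.0 CPM. In hypertension the sum was 3652 to 4669 CPM and *Gata2* 25.4 to 30.9 CPM, both above all controls. After MI both overlapped with controls. The part of these cells in the *Gata2* value was not tested. *Lmo2*, the most abundant in CPM, differed by a log2 fold change of 0.09, 0.12 and -0.05 in hypertension, atherosclerosis and MI.

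In the remaining lists no gene passed in any comparison, with 11 of 12 VEGF-responsive genes, 19 of 20 hypoxia genes and 5 of 5 angiopoietin and Tie genes tested. *Angpt2*, an angiopoietin that VEGF induces in endothelium and that loosens vessels, was at 0.874 ± 0.181 CPM in controls, 1.21 ± 0.257 in hypertension, 1.79 ± 0.118 in atherosclerosis and 1.18 ± 0.198 after MI (SD, n = 3 each). Its log2 fold change in atherosclerosis was 1.03 (standard error 0.30, unadjusted p = 0.00448, adjusted p = 0.46 in edgeR's quasi-likelihood test). *Angpt1*, which stabilizes vessels, had a log2 fold change of 0.49 in atherosclerosis (adjusted p = 0.831 in the same quasi-likelihood test of edgeR), and *Nr4a1*, an immediate early gene, of 0.43 (adjusted p = 0.88, likewise from edgeR). Among hypoxia genes, *Ldha* (lactate dehydrogenase) had log2 fold changes of -0.25, -0.18 and 0.31 in hypertension, atherosclerosis and MI. *Vldlr*, a lipoprotein receptor induced by hypoxia, reached 1.34 in atherosclerosis and 1.11 after MI, with adjusted p values of 0.687 and 1.00 from edgeR. Its level was low, at 0.394 to 1.82 CPM over the 12 libraries.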

How the data were processed

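RNA of sorted bone marrow endothelial cells was measured in 12 mice, grouped by the labels. The authors made polyA-selected, strand-specific libraries, sequenced 50-bp single reads and aligned them with STAR 2.7.3a to GRCm38.p6, counting reads per gene of Ensembl release 98 with its GeneCounts option; which strand column was taken is not given in the sources used here. The deposited values are these raw counts per gene, not normalized. This option sets aside reads that overlap more than 1 gene, so overlapping genes can lose counts. Symbols and lengths came from GENCODE M21, which matched 55240 of 55421 genes.

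Genes were filtered with filterByExpr and scaled by TMM, and edgeR 4.0.16 (R 4.3.3) fitted 1 coefficient per group to all 12 libraries; each comparison used glmQLFTest, two-sided, with Benjamini-Hochberg adjustment over 15999 genes, although the study's own test was the likelihood-ratio test, run as an alternative. CPM of members were compared between 3 and 3 libraries by exact permutation. Correlations used 100000 permutations and Benjamini-Hochberg adjustment over 88 pairs, and those between members over 28 pairs, a test added after seeing the data. The edgeR fit was tested on simulated counts, with a single dispersion and with changes set only in genes above the median level.

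The members and lists were chosen with earlier results of these data known. Named were all members, *Apoe*, and from each list the genes that passed, the one with the highest mean CPM and the one with the smallest p against controls, and the 3 genes most alike each member, of which 1 is printed for 5 members. *Cdh5*, *Pecam1*, *Ly6a*, *Ptprc* and *Itga2b*, markers of the sorted or of the excluded cells, were named beyond this rule after their values were seen. Labels do not say more of the replicates than their numbers, 2 to 4; libraries of a group differed by more than sampling noise, and p-values measure the spread between these libraries. Total counts were 17007088 to 25136936 per library. Alternatives were DESeq2 1.42.0, RLE size factors, other filters, only the compared groups, the replicate number as a block, marker sums as covariates, another threshold, another gene length and each library left out. Protein sequences were not used here.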

Additional observations from a re-analysis of the deposited data

How the results depend on the processing

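Under the alternatives run, the number of members called was 0 of 9 in every comparison, with the replicate block (0 of 9) and every library left out in turn included, and the lowest adjusted p of a member against controls was 0.40. Deviations of same-numbered libraries from their group means correlated between -0.282 and 0.296, so the numbers were not taken to pair the mice. The block moved the count of all genes called from 23 to 7 in atherosclerosis against controls, from 43 to 22 for MI against atherosclerosis and from 23 to 5 for any group difference.

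Some log2 fold changes of members changed sign, without passing the threshold. With the neutrophil sum as a covariate, *Flt1*, *Pgf* and *Vegfb* in hypertension were -0.42, 0.040 and -0.038 and *Pgf* in atherosclerosis 0.14. The neutrophil sums of hypertensive and control mice did not overlap, so this covariate and the hypertension group cannot be fully told apart. With the endothelial sum, *Vegfa* was 0.059 in hypertension and -0.016 in atherosclerosis, and *Nrp2* and *Kdr* after MI were 0.034 and 0.024. With the block, *Nrp1* in atherosclerosis was 0.00265. With each library left out in turn, hypertension values ranged from -0.35 to 0.031 for *Nrp2*, -0.50 to 0.041 for *Kdr*, -0.69 to 0.13 for *Vegfc*, -0.31 to 0.013 for *Nrp1*, -1.11 to 0.040 for *Pgf*, -0.16 to 0.065 for *Vegfa* and -0.00314 to 0.21 for *Vegfb*. In atherosclerosis they ranged from -0.21 to 0.18 for *Nrp2*, -0.31 to 0.23 for *Kdr*, -0.53 to 0.28 for *Flt1*, -0.21 to 0.15 for *Nrp1*, -0.38 to 0.057 for *Pgf* and -0.26 to 0.27 for *Vegfa*. After MI they ranged from -0.21 to 0.20 for *Nrp2*, -0.33 to 0.21 for *Kdr*, -0.12 to 0.52 for *Flt1*, -1.002 to 0.30 for *Vegfc* and -0.11 to 0.056 for *Vegfb*. The cause was not tested.

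The r of *Kdr* with endothelial markers was 0.83 to 0.93 with each library left out. For other members r with that list changed sign, to 0.13 for *Nrp1* on plain CPM, -0.29 for *Vegfb* and -0.091 for *Flt1* with the shorter list, and, with a library left out, -0.11 to 0.23 for *Vegfb*, -0.10 to 0.29 for *Flt1*, -0.15 to 0.69 for *Flt4* and -0.14 to 0.27 for *Nrp1*.

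Counts over all genes depended on the tool. In hypertension, atherosclerosis and MI against controls, then for atherosclerosis and MI against hypertension, MI against atherosclerosis and any difference, edgeR's quasi-likelihood test called 0, 23, 0, 10, 0, 43 and 23 genes, the likelihood-ratio test 0, 81, 1, 70, 2, 274 and 234, DESeq2 0, 81, 1, 76, 22, 301 and 241, and no filter 170, 432, 130, 235, 422, 790 and 990. Fitting only the 2 groups gave 0, 4, 1, 7, 0 and 3. A threshold of 0.1 on the adjusted p gave 19 for atherosclerosis against hypertension, 152 for MI against atherosclerosis and 49 for any difference. The endothelial sum gave 14, 18 and 13 in atherosclerosis against controls, MI against atherosclerosis and any difference, and the neutrophil sum 1 in hypertension, 27 for atherosclerosis against hypertension and 18 for MI against atherosclerosis. With a library left out, the counts ranged from 2 to 34 in atherosclerosis against controls, 3 to 36 for atherosclerosis against hypertension, 8 to 93 for MI against atherosclerosis and 7 to 37 for any difference.

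With 3 mice a group, the 95% intervals of *Kdr* span folds from 0.548 to 1.42, and those of *Vegfc* and *Pgf*, with at most 114 counts, are wider. Fold changes of single members between disease groups are not reported. Outliers were not tested in groups of 3.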
